A study of Mus musculus with 9 samples.

Results

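Expression of the Cyp4a fatty acid omega-hydroxylases was examined in mouse liver. The 5 genes Cyp4a10, Cyp4a14, Cyp4a31, Cyp4a12a and Cyp4a12b were taken by their gene names in the scanner output, and they held 8 of the 56605 non-control probes, which carry 37074 gene names in all. Liver RNA came from male C57BL/6N mice labelled as 12 months of age, in 3 groups of 3 samples, each measured on its own one-colour Agilent array. AAV-V mice received an empty adeno-associated virus vector and AAV-GP73 mice received a vector carrying GP73, a Golgi membrane protein encoded by Golm1, both by tail vein injection and both on a regular diet. AAV-V HFD mice received the empty vector and were kept on a high-fat diet. All groups therefore carried AAV, the GP73 vector was built for expression in hepatocytes, and no AAV-GP73 mice on the high-fat diet were among the arrays. The labels give the age as 12 months, whereas the study describes that time as counted from injection, and its text gives differing durations for the diet. Whether a sample is 1 mouse or a pool is not stated, so that the p-values below measure the spread between these samples only.

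Cyp4a enzymes are microsomal cytochrome P450s that add a hydroxyl group to the terminal (omega) carbon of fatty acids. Alcohol and aldehyde dehydrogenases then turn the product into a dicarboxylic acid, which peroxisomes shorten by beta-oxidation. In mouse liver, Cyp4a10, Cyp4a14 and Cyp4a31 are known as genes induced through the fatty acid receptor PPARα during fasting or by fibrate drugs, whereas Cyp4a12a and Cyp4a12b are known for high expression in males.

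The 8 probes are 60 bases long and lie on chromosome 4 in the mm9 build that the scanner output uses. The Cyp4a10 probes are named here by their start in the transcript. Position 782 lies at chr4:115197445-115197926 and position 1193 at chr4:115198463-115198522, both on the plus strand. Position 1528 lies at chr4:115205268-115205756 on the same strand. The genomic spans of positions 782 and 1528 cover 482 and 489 bases, more than the probe itself, so that each probe crosses an intron. The Cyp4a14 probe (position 78) lies on the minus strand at chr4:115168609-115168668. The Cyp4a31 probes lie on the plus strand at chr4:115242872-115242931 (position 736) and chr4:115251553-115251612 (position 2441). The Cyp4a12a probe (position 2259) lies at chr4:115005258-115005317 and the Cyp4a12b probe (position 2335) at chr4:115111580-115111639, both on the plus strand.

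The family is a cluster of near copies, and the identity of a probe decides which gene a signal can be credited to. The scanner output lists Cyp4a32 beside Cyp4a10 for all 3 Cyp4a10 probes, Cyp4a10 beside Cyp4a31 for the Cyp4a31 probe at position 736, and Cyp4a12b beside Cyp4a12a for the Cyp4a12a probe. The probes of Cyp4a14, Cyp4a31 (position 2441) and Cyp4a12b are listed for 1 gene each. No probe is named for Cyp4a32, so that its transcript cannot be told apart from that of Cyp4a10. The sequences of the 3 probes that carried the difference between AAV-GP73 and AAV-V HFD are shown with the Cyp4a31 probe at position 736, and capitals mark the longest runs that Cyp4a31 736 shares with Cyp4a10 782 (11 bases) and with Cyp4a14 78 (12 bases).
Cyp4a10 782: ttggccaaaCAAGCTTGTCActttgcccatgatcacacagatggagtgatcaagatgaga
Cyp4a10 1193: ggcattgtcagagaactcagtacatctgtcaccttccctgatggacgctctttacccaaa
Cyp4a14 78: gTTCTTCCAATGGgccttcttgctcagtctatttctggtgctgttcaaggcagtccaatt
Cyp4a31 736: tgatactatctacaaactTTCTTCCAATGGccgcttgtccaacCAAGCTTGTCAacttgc

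The arrays differed in brightness, and this sets what can be said of dim probes. The upper quartile of processed signal, over the 2669 probes that the scanner software marked as well above background on all 9 arrays (written as detected below), was 96.3 ± 7.79 for AAV-V arrays, 280 ± 39.2 for AAV-GP73 and 269 ± 66.3 for the diet group (SD, n = 3 each). The share of detected spots was 10.4% ± 0.307, 17.1% ± 1.18 and 15.6% ± 1.57 in the same order. Signals were therefore placed on a scaled log2 scale on which that quartile is equal on all arrays. On it, the lowest detected signal of an array was 3.77 to 3.94 on the AAV-V arrays but 1.85 to 2.49 on the AAV-GP73 arrays and 2.04 to 2.81 on the AAV-V HFD arrays. It served as a floor for undetected probes, or the probe's own signal did where that was higher, as it was for some undetected probes, so that the folds given below as at least a value are estimates and not strict limits. Tested were the probes that at least 1 group showed as detected throughout its 3 arrays, and a call needed a fold change of 2 or more together with an adjusted p under 0.05 in limma. The diet arrays had a slide of their own while the AAV-V and AAV-GP73 arrays shared the other, and slide and diet cannot be told apart. Of the 8 hepatocyte markers, 7 or 8 were detected on every array. The single Golm1 probe was undetected throughout, with processed signals of 1.51 to 1.81 in AAV-GP73 and 1.62 to 2.06 in AAV-V, and gave no check of the labels.

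Cyp4a10 was detected with 2 of its 3 probes on all AAV-GP73 arrays and on none of the AAV-V arrays. At position 782, the processed signals were 1.64, 1.66 and 2.02 on the AAV-V arrays, 10.8, 17.2 and 42.3 with AAV-GP73 and 2.75, 2.88 and 3.13 on the high-fat diet. The AAV-GP73 arrays lay above all others, and the probe was not detected on the other 6. At position 1193, the signals were 1.62, 5.47 and 3.9 on the AAV-V arrays, 17.7, 40.5 and 54.4 with AAV-GP73 and 10.9, 8.88 and 4.33 on the high-fat diet. Again no AAV-GP73 array overlapped with another group, and the probe was detected on 1 of the 6 other arrays (10.9, AAV-V HFD). At position 1528, which was not tested, the signals were 1.39, 1.4 and 1.72 on the AAV-V arrays, 7.15, 6.55 and 13.6 with AAV-GP73 and 1.42, 4.06 and 1.85 on the high-fat diet. Of these signals, 7.15 and 13.6 counted as detected.

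Cyp4a14, a close relative of Cyp4a10, was detected on the same arrays as Cyp4a10 at position 782. Its processed signals were 1.66, 1.94 and 2.02 on the AAV-V arrays, 9.42, 15.1 and 20.3 with AAV-GP73 and 1.64, 1.77 and 1.72 on the high-fat diet. The signal was detected on all 3 AAV-GP73 arrays and on 0 of the 6 others, and the groups AAV-V and AAV-V HFD overlapped.

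Cyp4a31 was the brightest of the family in AAV-GP73 by its probe at position 2441, although signals of different probes cannot be set against each other as transcript levels. The processed signals were 5.7, 8.24 and 9.24 on the AAV-V arrays, 59.4, 74.5 and 149 with AAV-GP73 and 61.1, 47.2 and 8.11 on the high-fat diet. It was detected on 2 AAV-V arrays and on all arrays of the other groups. The AAV-V HFD arrays were spread widely, with replicate 3 close to the AAV-V arrays before scaling and below them after it. The Cyp4a31 probe at position 736 was undetected on every array.

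The male-predominant genes also had higher mean processed signals in AAV-GP73 than in the dimmer AAV-V arrays. The means were 7.77 against 1.64 for Cyp4a12a and 22.1 against 15.3 for Cyp4a12b. The Cyp4a12a probe gave processed signals of 1.55, 1.57 and 1.82 on the AAV-V arrays, 7.85, 5.1 and 10.4 with AAV-GP73 and 8.34, 8.76 and 1.53 on the high-fat diet. It was detected on 2 arrays each of AAV-GP73 and AAV-V HFD and was not tested. The Cyp4a12b probe gave 11.8, 13.9 and 20.4 on the AAV-V arrays, 21, 20.2 and 25.1 with AAV-GP73 and 30.6, 27.7 and 7.64 on the high-fat diet. It was detected on 8 of the 9 arrays, the exception being AAV-V HFD replicate 3.

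**Figure D1:**
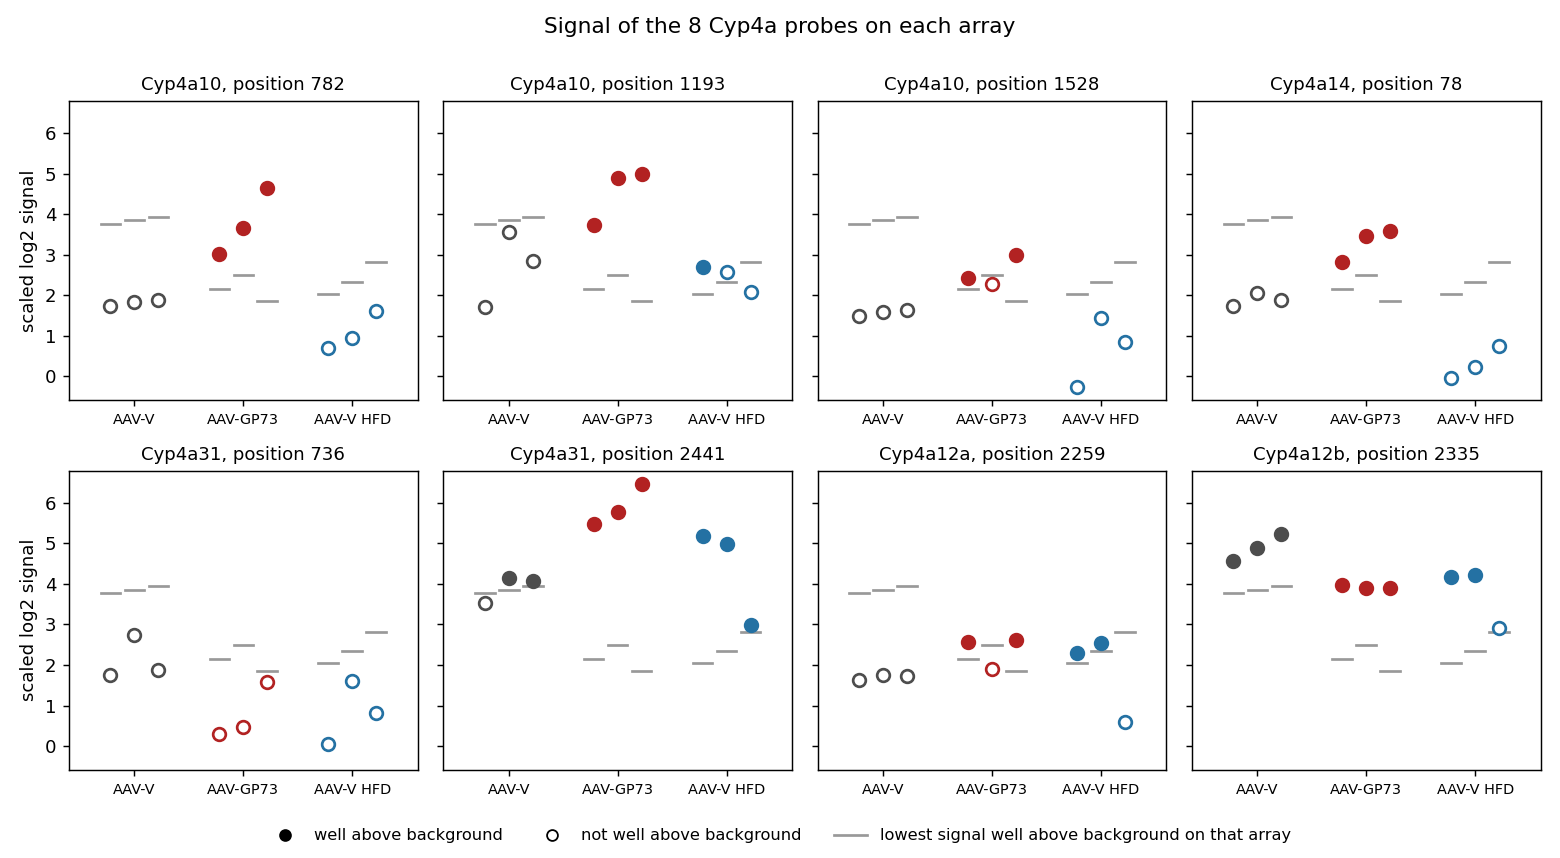
Scaled log2 signal of each of the 8 Cyp4a probes on the 9 arrays, 1 point per array, filled where the probe was detected, with a grey line at that array's lowest detected signal. The Cyp4a10 probes at positions 782 and 1193 and the Cyp4a14 probe are filled on all 3 AAV-GP73 arrays, while the grey lines lie between 3.77 and 3.94 on the AAV-V arrays and between 1.85 and 2.81 on the others.

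Between AAV-GP73 and AAV-V HFD, Cyp4a10 and Cyp4a14 were higher in AAV-GP73. The differences of Cyp4a31 and Cyp4a12b did not pass the test, and Cyp4a12a was not tested. For Cyp4a10 at position 782, the scaled log2 signal was 3.78 ± 0.81 in AAV-GP73 against 1.09 ± 0.47 in AAV-V HFD (SD, n = 3 each). The log2 fold change was 2.69 (SE 0.39, adjusted p = 0.00514, limma). As the probe stayed undetected in AAV-V HFD, the size is a bound, namely at least 2.61-fold higher, taken against the floor of each AAV-V HFD array. For Cyp4a14, the scaled signals were 3.29 ± 0.41 and 0.32 ± 0.40, with a log2 fold change of 2.97 (SE 0.31, adjusted p = 0.00053) and a bound of at least 1.86-fold. These bounds ran from 2.24 to 3.31 for Cyp4a10 and from 1.63 to 2.37 for Cyp4a14 over 5 ways of scaling the processed signals. For Cyp4a14, only the spike-in probes (2.37) put the bound above the fold of 2 that a call needs.

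The Cyp4a10 probe at position 1193 lay at 4.54 ± 0.71 in AAV-GP73 against 2.45 ± 0.32 in AAV-V HFD (log2 fold change 2.10, SE 0.47, adjusted p = 0.0376). It was detected on 1 of the 3 AAV-V HFD arrays, so that the size of this difference is uncertain. The difference stayed between 1.87 and 2.50 on the log2 scale when 1 array was left out, but its adjusted p rose above the threshold in 6 of those 9 fits (without AAV-V replicate 3, AAV-GP73 replicates 2 or 3, or any 1 AAV-V HFD array), and after quantile normalization (1.88). Cyp4a31 at position 2441 lay at 5.90 ± 0.50 and 4.38 ± 1.21, and the groups did not overlap. Its log2 fold change of 1.52 (SE 0.51, 95% interval 0.41 to 2.63, adjusted p = 0.152) did not pass the test, and it was 0.83 without AAV-V HFD replicate 3. For Cyp4a12b the difference was 0.16, with an interval from -0.63 to 0.94 (adjusted p = 0.868).

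In all, 3 of the 5 tested Cyp4a probes were called higher in AAV-GP73 than in AAV-V HFD. Over all 6593 probes tested, 2.68% were called in this comparison, 2.09% higher and 0.592% lower. All 3 called probes had entered the test through the AAV-GP73 arrays alone, and such an entry favours a higher value there. The median log2 fold change was 0.10 over all probes tested. When each probe was tested alone, without the estimate of spread that limma shares across probes, 0 of the 5 Cyp4a probes and 13 of all probes remained after Benjamini-Hochberg adjustment. Of 4 erythroid markers tested, 2 were called higher in the same comparison, Hba-a1 and Hba-a2. Hbb-bt (2.4, adjusted p = 0.0619, limma) and Alas2 (0.92, adjusted p = 0.532) were not called. The summed scaled signal of the 5 markers was 392 to 976 on the AAV-V arrays, 3420 to 17400 with AAV-GP73 and 651 to 1130 on the high-fat diet, with 3 to 5 of the 5 detected on each array. The haemoglobin gene Hba-a1 was 3.18 higher (SE 0.55, adjusted p = 0.0117) in AAV-GP73 than in AAV-V HFD on the log2 scale, and the part of these cells in the Cyp4a results was not tested.

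Between AAV-GP73 and AAV-V, the processed signals of Cyp4a10, Cyp4a14 and Cyp4a31 were higher in AAV-GP73, but a size could be given for fewer probes, because the AAV-V arrays were dim. For Cyp4a31 (position 2441), the scaled signal rose from 3.91 ± 0.34 to 5.90 ± 0.50, a 3.97-fold difference (log2 fold change 1.99, SE 0.51, 95% interval 0.88 to 3.1, adjusted p = 0.00554). Its AAV-V signals of 3.52 (undetected), 4.14 and 4.08 lay near the floors of 3.77, 3.86 and 3.94, so that this size is uncertain. No AAV-GP73 array overlapped with an AAV-V array, and the change lay 1.35 above the median of all probes, which was 0.64. The size moved with the scaling, to 2.98 on the log2 scale with the 75th percentile of all probes, 3.67 with the spike-in probes and 0.24 with normexp. For Cyp4a10 at position 1193, not detected in AAV-V, the change was 1.85 (SE 0.47, adjusted p = 0.00525), a bound of at least 1.61-fold. For Cyp4a10 at position 782 (log2 fold change 1.96, SE 0.39, adjusted p = 0.00132) and Cyp4a14 (1.39, SE 0.31, adjusted p = 0.00235), the AAV-GP73 mean was below the mean floor of the AAV-V arrays, and no fold is given. The same held with the median of detected probes and quantile normalization. Scaling by the 75th percentile of all probes gave at least 1.88-fold and at least 1.34-fold for these probes, and the spike-in probes gave at least 3.03-fold and at least 2.17-fold.

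Cyp4a12b lay at 4.89 ± 0.33 in AAV-V and 3.92 ± 0.05 in AAV-GP73, without overlap. The log2 fold change of -0.97 (SE 0.36, adjusted p = 0.0344) fell short of the fold threshold. Its direction depended on the scaling, since its processed signal was higher in AAV-GP73 and the scaled one lower. It was -1.20 on the authors' own log2 values, 0.02 with the 75th percentile of all probes and 0.71 with the spike-in probes. In this comparison 4 of the 5 tested Cyp4a probes were called, all higher, against 51.9% of all probes called, 34% higher and 17.9% lower. Of the 4 called probes, 3 were undetected in AAV-V and had entered the test through AAV-GP73. With the normexp background correction, which adds an offset of 50 to the signals, 0 of the 5 were called. Of all 6593 probes tested, it called 152 higher and 741 lower.

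On the high-fat diet, compared with AAV-V, 0 of the 5 probes were called higher and 2 lower, where 42% of all probes were called, 25.1% higher and 16.9% lower. With the 75th percentile of all probes and with the spike-in probes the split was instead 1 higher, Cyp4a31 (1.42, adjusted p = 0.0436, and 1.80, adjusted p = 0.0132), and 0 lower. The Cyp4a14 call (log2 fold change -1.58, adjusted p = 0.00187) came from 2 groups that were undetected on every array, and it gives neither a size nor a direction. Cyp4a12b was 2.19-fold lower on the high-fat diet (4.89 ± 0.33 against 3.76 ± 0.74, log2 fold change -1.13, SE 0.36, adjusted p = 0.0206). This call was lost without AAV-V HFD replicate 3 (-0.70, adjusted p = 0.0652), the array on which the probe was not detected, and without AAV-V replicate 3 (-0.97, adjusted p = 0.0732). The direction turned to 0.20 with the spike-in probes.

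Cyp4a31 differed by 0.47 (adjusted p = 0.457) between AAV-V HFD and AAV-V, and by 1.16 (adjusted p = 0.021) without AAV-V HFD replicate 3. For Cyp4a10 at positions 782 and 1193, the values of -0.73 and -0.25 (adjusted p = 0.136 and 0.67) carried no reading, since the probes were detected on 0 and 1 of the 6 arrays.

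**Figure D2:**
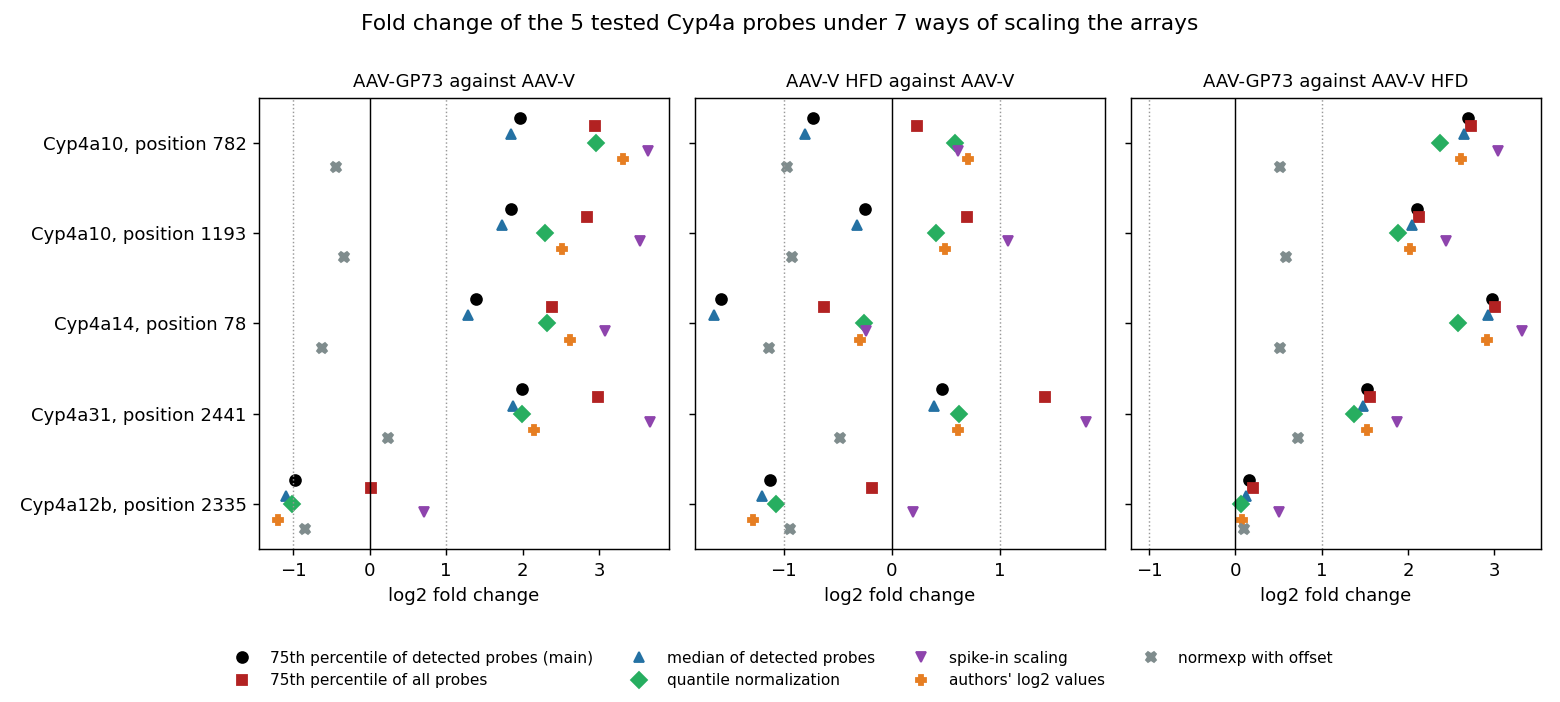
Log2 fold change of the 5 tested Cyp4a probes in the 3 comparisons under 7 ways of scaling the arrays, with dotted lines at a fold change of 2. All values between AAV-GP73 and AAV-V HFD lie above 0, whereas those against AAV-V shift with the scaling, and the normexp values with an offset of 50, which exceeds 67 of the 72 signals of the 8 Cyp4a probes, lie below 0 for Cyp4a10 and Cyp4a14 in AAV-GP73 against AAV-V.

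Within AAV-GP73, the Cyp4a10, Cyp4a14 and Cyp4a31 probes had the same highest and lowest array. AAV-GP73 replicate 1 was the lowest and replicate 3 the highest of that group for Cyp4a10 at positions 782 and 1193, Cyp4a14 and Cyp4a31 at position 2441, on the scaled signal. Over the 9 arrays, Pearson's r was 0.94 between Cyp4a10 782 and Cyp4a14, 0.85 between the tested Cyp4a10 probes, and 0.83 between Cyp4a10 1193 and Cyp4a31. Cyp4a12b had r of -0.20 to 0.05 with the others. These values describe 9 arrays that share 3 groups and a scaling. Cyp4a10 782 and Cyp4a14 were detected on only 3 of the 9 arrays and Cyp4a10 1193 on 4, so that most of their values are undetected signals.

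Among 2667 probes detected on all arrays, the genes with the most similar pattern were named for each tested probe. For Cyp4a10 782 they included Gstp1 (r = 0.926), a glutathione transferase, and Cyp2f2 (0.924), a P450 of foreign compounds. Cyp2f2 was also near the top for Cyp4a14 (0.939), after Erc2 (0.95), a protein of the presynaptic active zone. The RNA-binding proteins A1cf and Pabpn1 were nearest to both Cyp4a31 (0.953 and 0.943) and Cyp4a10 1193 (0.84 and 0.893). Cyp4a12b was nearest to Fam109b (0.926), Syngr2 (0.91) and Mrpl27 (0.904). These r are the highest among 2667 probes, and for Cyp4a10 and Cyp4a14 most of the values compared are undetected signals. Shared regulation was not tested.

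The other genes of the pathway were read from lists, each gene by its brightest probe. The counts of calls against AAV-V are to be read beside those of all probes tested, of which 34% were called higher and 17.9% lower with GP73 (median 0.64) and 25.1% and 16.9% with the diet (median 0.41). For AAV-GP73 against AAV-V HFD, these shares were 2.09% and 0.592% (median 0.10). With the spike-in probes, no gene of the pathway lists or of the sex-biased lists was called lower in AAV-GP73 than in AAV-V. That scaling called only 93 of all 6593 probes lower and 5124 higher (median 2.32), so that this is not particular to these lists. Of 14 other Cyp4 genes on the array, only Cyp4f14, which acts on leukotrienes, was tested. It was undetected in AAV-V and detected on all other arrays, with a log2 fold change of 0.20 (SE 0.34, adjusted p = 0.811) between AAV-GP73 and AAV-V HFD. It was not called against AAV-V, but it was called higher there with the 75th percentile of all probes, quantile normalization, the spike-in probes and the authors' log2 values, by 1.23 to 2.31 with GP73 and 1.15 to 1.76 with the diet.

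Electron donors of the P450s were represented by 4 tested genes of 6. Cytochrome b5 (Cyb5a) was called higher than in AAV-V in both groups, by 2.41 (SE 0.30) in AAV-GP73 and 2.56 (SE 0.30) in AAV-V HFD. The P450 reductase Por, with 3.65 in AAV-GP73, 3.93 in AAV-V and 4.05 in AAV-V HFD, was not called. AAV-GP73 against AAV-V HFD gave 0 calls of 4, with a median of -0.10.

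The dehydrogenases of the later steps were tested for 8 genes of 9. Against AAV-V, 6 were called higher and 1 lower with GP73 (median 2.45) and with the diet (median 2.10). Of the 8, 3 were undetected in AAV-V, and among the 5 detected on all arrays of both groups 3 were higher and 1 lower, with GP73 as with the diet. With normexp, 3 were called higher and 0 lower with GP73 (median 0.05), and 1 and 1 with the diet (median -0.02). Of all 6593 probes tested, normexp called 152 higher and 741 lower with GP73 (median -0.58), and 80 and 882 with the diet (median -0.74). The fatty aldehyde dehydrogenase Aldh3a2 was not detected in AAV-V, and exceeded it by at least 2.22-fold with GP73 (adjusted p = 0.00326) and at least 1.2-fold with the diet (adjusted p = 0.0224). On the diet it was detected on 2 of the 3 arrays, so that 1.2-fold is an estimate and no strict limit. The 1 that was lower in both was Aldh3a1 (-1.61 and -1.39), named after its values were seen. AAV-GP73 against AAV-V HFD gave 0 calls of 8, with a median of 0.37 and values from -0.22 (Aldh3a1) to 0.89 (Aldh3a2).

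Genes of peroxisomal beta-oxidation and of the use of dicarboxylic acids were tested for 11 of 13. Of these, 10 were called higher and 1 lower against AAV-V with GP73 (median 3.49) and with the diet (median 2.22). The thiolase Acaa1a was the 1 that was lower, by -1.53 and -2.36, named after its values were seen. Of the 11 genes, 5 were undetected in AAV-V and entered the test only through detection in another group, which favours higher values there. With normexp, 4 were called higher with GP73 and 2 with the diet, against 152 and 80 of all 6593 probes tested.

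When AAV-GP73 was set against AAV-V HFD, 2 of these 11 were called, both higher, where 2.09% of all probes were called higher. All 11 lay above the median of all probes. Ehhadh, the peroxisomal bifunctional enzyme, had scaled signals of 6.25, 6.19 and 6.61 in AAV-GP73 and of 2.52, 3.22 and 3.1 in AAV-V HFD, the last not detected (log2 fold change 3.41, SE 0.28, adjusted p = 0.000104). Crot, the carnitine transferase that releases shortened acyl chains from peroxisomes, had 6.78, 6.41 and 6.52 against 4.73, 4.56 and 4.96 (1.82, SE 0.30, adjusted p = 0.00988). Neither gene overlapped between the groups, and Ehhadh entered the test through AAV-GP73 alone, which favours a higher value there.

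Other PPARα target genes were tested for 19 of 30. Against AAV-V, 17 were called higher and 1 lower with GP73 (median 3.35), and 15 and 1 with the diet (median 2.30). Of the 19, 9 were undetected in AAV-V and entered the test only through detection in another group, which favours higher values there. Among the 4 detected on all arrays of both groups, 3 were higher and 1 lower in each comparison. The transporter Slc27a1, named after its values were seen, was lower in both (-2.0 and -1.27). AAV-GP73 against AAV-V HFD gave 2 calls of 19, both higher, namely Acot1, an acyl-CoA thioesterase (log2 fold change 3.17, SE 0.71, adjusted p = 0.0376), and Plin2, a coat protein of lipid droplets (2.46, SE 0.52, adjusted p = 0.0294). Acot1 was detected on 2 of the 3 AAV-V HFD arrays and, like Ehhadh, entered the test through AAV-GP73 alone. Of the 19, 18 lay above the median of all probes, and the list median was 0.82. No call of this list remained after quantile normalization, and 1 of the peroxisomal list did. With normexp, the list median against AAV-V was 0.64 with GP73, with 5 genes called higher, and -0.11 with the diet, with 2. The normexp medians of all probes tested were -0.58 and -0.74, so that the list lay 1.22 and 0.63 above them.

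PPARα itself (Ppara) had scaled signals of 2.55, 4.1 and 2.86 on the AAV-V arrays, 4.64, 5.08 and 5.43 with AAV-GP73 and 5.25, 5.52 and 3.6 on the high-fat diet. It was not detected in AAV-V, and its mean exceeded it by at least 2.16-fold with GP73 (adjusted p = 0.00849) and at least 1.81-fold with the diet (adjusted p = 0.0214). On the diet, the signal of 3.6 lay below the AAV-V signal of 4.1. Another tested Ppara probe (position 7356) gave 3.56, 4 and 4.28 with AAV-GP73 and 3.46, 4.51 and 2.93 on the high-fat diet, the last undetected. That probe was undetected in AAV-V, where the floor was 3.77 to 3.94, and no fold is given for it. Between AAV-GP73 and AAV-V HFD, where Cyp4a10 and Cyp4a14 were called, Ppara differed by 0.26 (SE 0.52, adjusted p = 0.848) and its partner receptor Rxra by 0.21 (SE 0.27, adjusted p = 0.741). Of 12 genes of PPARα and its partners, 4 were tested, and 0 were called in this comparison. Against AAV-V, 3 of the 4 were called higher and 1, Rxrb, lower (-1.29, SE 0.25) in AAV-GP73, and 2 were called higher in AAV-V HFD.

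**Figure D3:**
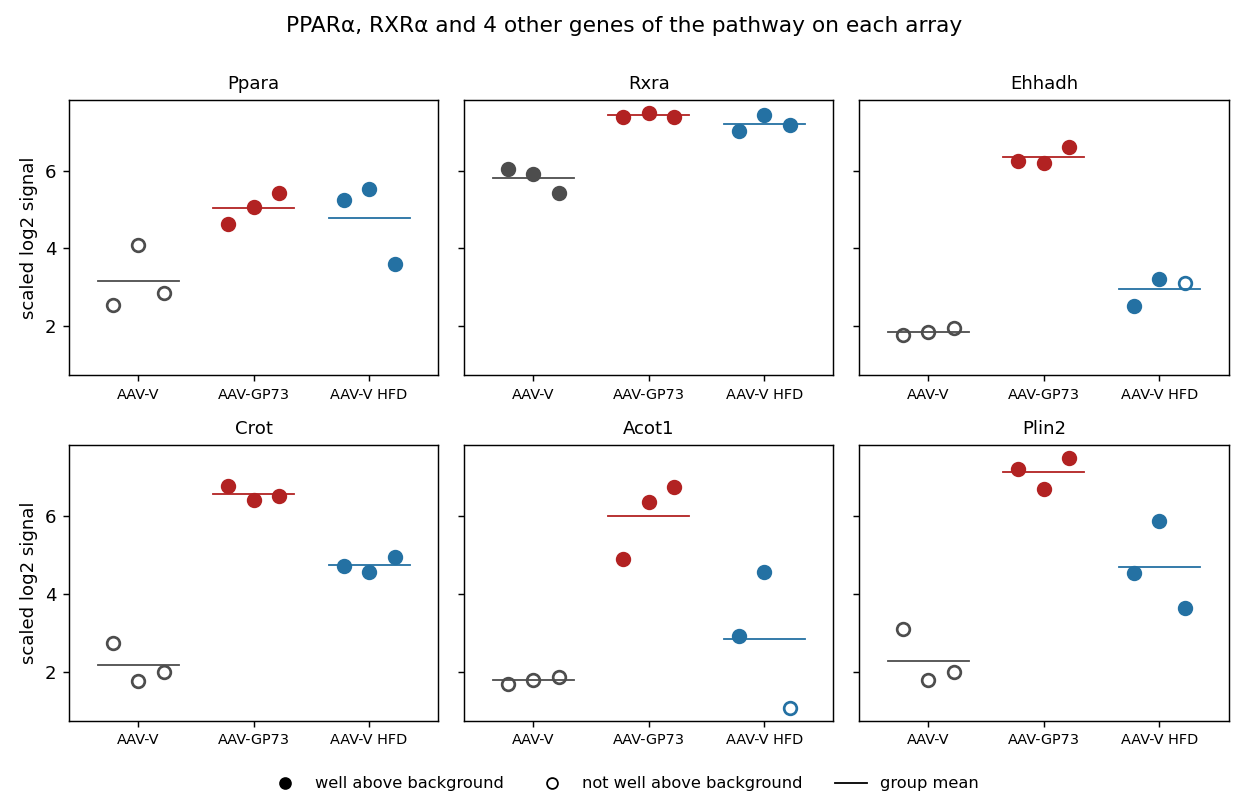
Scaled log2 signal of Ppara, Rxra and 4 other genes of the pathway on the 9 arrays, 1 point per array, filled where the probe was detected, with group means as lines. Ppara and Rxra were not called between AAV-GP73 and AAV-V HFD, whereas Ehhadh, Crot, Acot1 and Plin2 were, with no overlap between those groups.

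**Figure D4:**
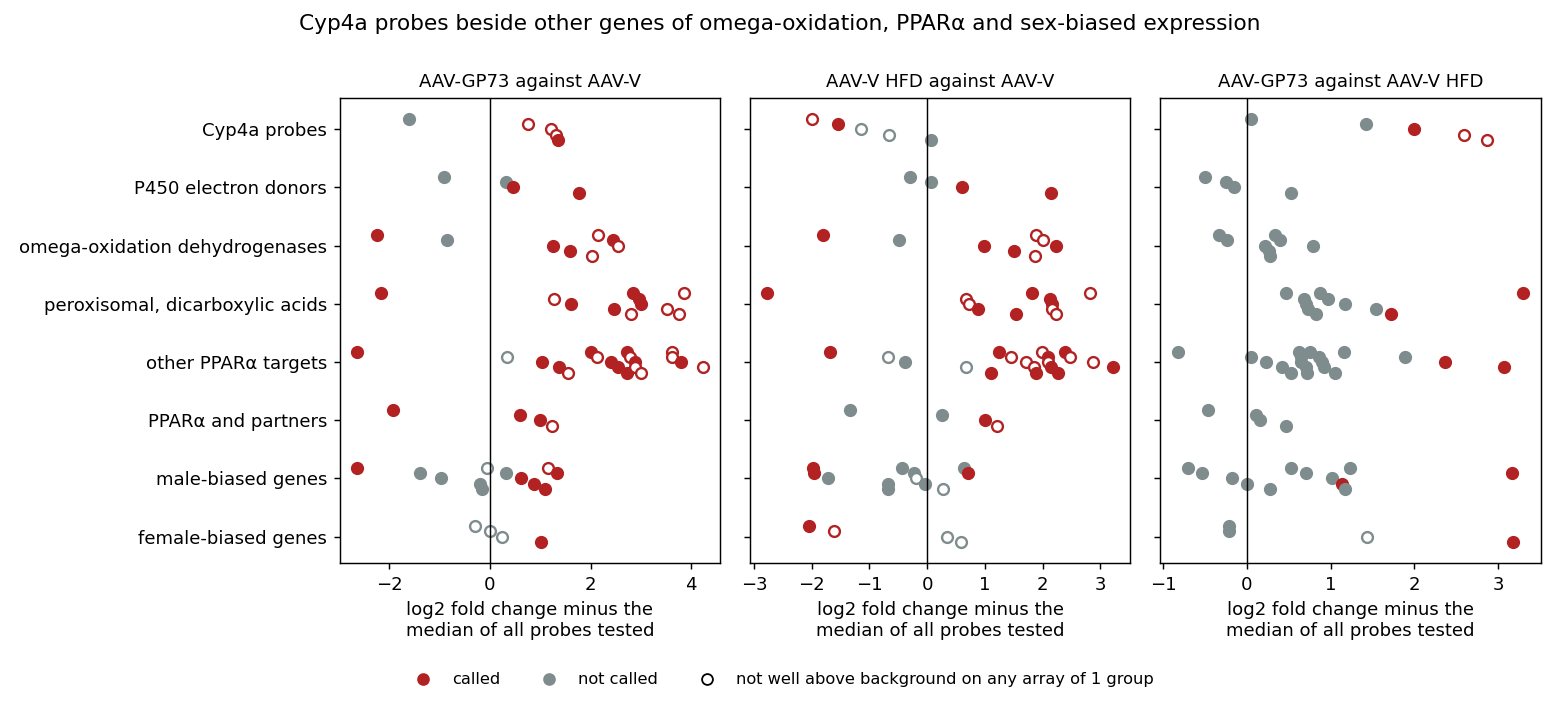
Log2 fold change minus the median of all probes tested, for the 5 tested Cyp4a probes and, by their brightest probe, the tested genes of 7 lists, in the 3 comparisons. Called values are red, and open points mark probes undetected on every array of at least 1 of the groups compared in that panel. Between AAV-GP73 and AAV-V HFD, the red points are 3 Cyp4a probes, Ehhadh, Crot, Acot1, Plin2, Elovl3, Gstp1 and Cyp3a41a.

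Since Cyp4a12a and Cyp4a12b are known for sex-biased expression, other sex-biased liver genes were read as well. Of 14 male-biased genes, 12 were tested. Against AAV-V, 5 were called higher and 1 lower with GP73 (median 0.78), and 1 and 2 with the diet (median 0.08). Relative to the median of all probes, these list medians were 0.14 and -0.33, and the share called higher with GP73 was near that of all probes. Elovl3, a fatty acid elongase, was higher in AAV-GP73 than in AAV-V HFD by 3.28 (SE 0.53, adjusted p = 0.00836), as was Gstp1 by 1.24 (SE 0.28, adjusted p = 0.0362). Of 14 female-biased genes, 4 were tested, and Cyp3a41a was called higher in AAV-GP73 than in AAV-V HFD (3.28). Elovl3 and Cyp3a41a were detected on 2 of the 3 AAV-V HFD arrays and entered the test through AAV-GP73 alone.

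Markers of hepatocytes and of other cells were read as well. The summed signal of the 8 hepatocyte markers was 15000 to 24700, 14900 to 19400 and 9340 to 14500 in AAV-V, AAV-GP73 and AAV-V HFD. Of 7 macrophage markers, 2 to 3, 5 to 6 and 5 to 7 were detected in the same order, with summed signals of 150 to 163, 192 to 250 and 212 to 270. Of 5 endothelial markers, 0 to 1, 1 to 3 and 0 to 2 were detected, with sums of 23 to 31.6, 26.9 to 39.5 and 9.68 to 24.5. The endothelial Clec4g, undetected in AAV-V, was called higher with GP73 (at least 1.5-fold, adjusted p = 0.00169), though not with normexp (-0.39, median of all probes -0.58). Of 6 stellate cell markers, 1, 1 to 3 and 1 to 3 were detected, while their summed signal was 91.8 to 219, 28.1 to 58.3 and 28.6 to 55.5, and Des, which encodes desmin, was called lower with GP73 (-2.14) and with the diet (-2.31), though not with the spike-in probes (-0.46 and -0.97). Of 5 bile duct markers, 0, 0 to 1 and 0 to 1 were detected, and of 4 lymphocyte markers 0 on every array. The AAV-V arrays detected fewer spots of all kinds (10.4% against 17.1% and 15.6%), and the sums include undetected probes. The bile duct markers, undetected in AAV-V, summed to 21.1 to 25.9 there, 7.32 to 14.9 in AAV-GP73 and 5.86 to 15.2 in AAV-V HFD. Neither the counts nor the sums therefore measure cell composition. In bulk liver, fewer cells of a type and less RNA per cell cannot be told apart.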

How the data were processed

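Liver RNA of 9 mouse samples, grouped by the labels, was labelled with Cy3 and hybridised to one-colour Agilent arrays. Intensity values, as deposited, come from the scanner output of Feature Extraction 12.0.3.1 per the file headers (the submitters' processing notes name version 10.7), background-subtracted within each array. A table of log2 values that the authors made was used as an alternative only, and how they were scaled is not given in the sources used here.

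Control spots and spots with quality marks were left out, spots of 1 probe were averaged, and log2 processed signals were given a common 75th percentile over the 2669 probes detected (marked well above background) on all 9 arrays. This percentile was used because most probes were not detected. The 6593 probes detected in every sample of 1 or more groups were fitted together with lmFit and eBayes (limma 3.58.1, R 4.3.3), with Benjamini-Hochberg adjustment over all of them and calls at a fold change of 2 and an adjusted p under 0.05. Where a group had no detected value, the fold was bounded with each array's lowest detected signal, or the probe's own where higher. Simulated data with known changes were used to check the fit. An exact permutation test of 3 arrays against 3 cannot give a p below 0.1. Arrays have no read depth, and their number and the signal over background limit the precision.

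The members, the lists and the tests were chosen with earlier results of these data known. Named genes were the members with every probe, Golm1, Ppara, up to 4 genes per list and comparison with the largest absolute change, and for likeness 3 probes per member, of which those with a gene symbol are given. Some genes that the rule names are not reported here and are counted in their lists only. Alternatives were other scalings (75th percentile of all probes, median, quantile, spike-in, normexp with an offset of 50, the authors' log2 values), filters on dim probes, other variance settings, t-tests, a replicate block and leaving out each array. Gene names and coordinates (mm9) are those of the scanner output. Promoters and proteins of the members were not analysed here.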

Additional observations from a re-analysis of the deposited data

How the results depend on the processing

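Of the 327 values of single Cyp4a probes under the alternatives, 275 kept their direction and their side of the threshold, and for the others the cause was not tested except where stated. In AAV-GP73 against AAV-V, the normexp correction, whose offset shrinks changes of dim probes by construction, gave -0.44 for Cyp4a10 782, -0.34 for Cyp4a10 1193, -0.62 for Cyp4a14 and 0.24 for Cyp4a31, with 0 of the 4 calls left. The median of all probes moved as well, from 0.64 to -0.58, and the cause of the turned signs was not tested. Cyp4a10 1193 (1.85) missed the threshold in the methods' t-test, adjusted or not. Cyp4a12b was called lower with the median of detected probes (-1.09), quantile normalization (-1.01) and the authors' log2 values (-1.20), and turned to 0.02 with the 75th percentile of all probes and 0.71 with the spike-in probes.

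In AAV-V HFD against AAV-V, the values under the 75th percentile of all probes, quantile normalization, the spike-in probes and the authors' log2 values were 0.23, 0.59, 0.61 and 0.71 for Cyp4a10 782, then 0.70, 0.41, 1.08 and 0.49 for Cyp4a10 1193, and -0.63, -0.26, -0.24 and -0.29 for Cyp4a14. Cyp4a31 gave 1.42 with the 75th percentile of all probes, 1.80 with the spike-in probes and -0.48 with normexp. Cyp4a12b gave -0.18, 0.20 and -0.94 in the same order, and -1.13 with the t-test, adjusted or not, above the threshold. The count of Cyp4a calls, 2, became 1 under the 75th percentile of all probes, quantile normalization, the spike-in probes, normexp, the authors' log2 values and both forms of the t-test. That 1 was Cyp4a31, higher, with the 75th percentile of all probes and the spike-in probes, Cyp4a12b, lower, with quantile normalization and the authors' log2 values, and Cyp4a14, lower, with normexp and the t-tests.

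In AAV-GP73 against AAV-V HFD, normexp gave 0.52 for Cyp4a10 782, 0.58 for Cyp4a10 1193 and 0.52 for Cyp4a14, with 0 of 3 calls left. After adjustment, the t-test also left 0, with the log2 fold changes as before (2.69, 2.10 and 2.97). Cyp4a10 1193 alone lost its call with quantile normalization (1.88), the authors' log2 values (2.02) and no filter on dim probes (2.10). When only probes detected on all 9 arrays were kept no Cyp4a probe was tested, and the count of Cyp4a calls was 0 in each comparison.

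The probes called over the whole array numbered 3421 for AAV-GP73 against AAV-V, and 5217 with the spike-in probes, 893 with normexp, 47067 without a filter and 1251 with the filter on all 9 arrays. For AAV-V HFD against AAV-V the number was 2770, and 4514, 962, 45091 and 1088 under the same settings, and 1696 with the adjusted t-test. For AAV-GP73 against AAV-V HFD it was 177, and 378, 49, 78 and 71 under the same settings, 48 with quantile normalization, 27 with the authors' log2 values, 389 before adjustment of the t-test and 13 after it. The higher share of the calls against AAV-V moved from 65.4% to 91.3% in AAV-GP73 and from 59.7% to 95.2% in AAV-V HFD with the 75th percentile of all probes.

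When 1 array was left out, the number of probes called in AAV-GP73 against AAV-V HFD ran from 38 (without AAV-GP73 replicate 3) to 191. It was 88 and 55 without AAV-GP73 replicates 1 and 2, and 93 without AAV-V HFD replicate 1. Over the same fits, Cyp4a10 1193 ran from 1.87 to 2.50 and Cyp4a12b from -0.27 to 0.38. In AAV-GP73 against AAV-V, Cyp4a12b ran from -1.14 to -0.81. In AAV-V HFD against AAV-V, the Cyp4a calls ran from 1 (without AAV-V replicate 3) to 2, Cyp4a10 1193 from -0.75 to 0.18, Cyp4a31 from 0.07 to 1.16 and Cyp4a12b from -1.35 to -0.70.

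Correlations of residuals between same-numbered arrays ran from -0.11 to 0.17, and 2 of 9 exceeded 0.1. With 3 arrays per group, this check cannot decide whether replicate numbers paired the samples. With a replicate block, 4, 2 and 3 Cyp4a probes were called in the 3 comparisons, as without it, and 3417, 2782 and 125 probes over the whole array.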
